A study of Mus musculus with 18 samples.

Results

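Srrm4os, Hectd2os, Atcayos, Malat1, Neat1, Gas5 and Snhg1 are 7 mouse genes whose transcripts are not known to code for proteins. They were taken by symbol from a table of 50689 features that counts unique molecular identifiers (UMIs), short random tags that let copies of one RNA molecule be counted once. All 7 had enough counts to be fitted in every comparison below. Some were listed because they differed in the knockout, without a statement of which. The 3 antisense RNAs, Srrm4os, Hectd2os and Atcayos, were therefore treated as chosen by their difference in level between knockout and control: their levels, fold changes and standard errors (SE) are described with no test. Malat1, Neat1, Gas5 and Snhg1 were tested.

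Satellite cells, which regenerate skeletal muscle, had been isolated from the tibialis anterior of C57BL6 mice and grown on matrigel in growth medium. The 9 control libraries carried 2 floxed Hoxa10 alleles (Hoxa10f/f). The 9 scKO libraries carried the same alleles and an inducible Cre driven from Pax7, a satellite cell gene (Pax7-CreERT2/+;Hoxa10f/f), and were exposed for 2 days to 1 µM 4-hydroxytamoxifen, which activates that Cre. The labels give the 4-hydroxytamoxifen for scKO alone, so loss of Hoxa10, Cre and the drug cannot be told apart, and cells that did not recombine stay in the culture. They do not say whether libraries came from separate animals or cultures, so every p-value measures only the spread between these libraries, which may be technical. Animal age is not among the labels used here.

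Long noncoding RNAs work in several ways. An antisense RNA is transcribed from the strand opposite another gene and can act on that gene, act elsewhere, or be a by-product of nearby transcription. Malat1 gathers in nuclear speckles, where splicing factors are stored, and Neat1 is the scaffold of paraspeckles, nuclear bodies that retain RNA and proteins. Gas5 and Snhg1 are host genes of small nucleolar RNAs (snoRNAs), which guide chemical changes of ribosomal RNA. The snoRNAs are cut from the introns, while the spliced host transcript is translated over a short frame and removed by nonsense-mediated decay. Host genes of this kind begin with a C followed by pyrimidines (a 5′ terminal oligopyrimidine tract), so that their RNA accumulates when translation slows, as in growth arrest, after which Gas5 is named. Malat1 is induced as myoblasts differentiate.

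The libraries fell into 2 depth classes. There were 13 shallow libraries under 2000000 counts (controls 3 to 9, scKO 1 to 5 and 8) and 5 deep ones above it (controls 1 and 2, scKO 6, 7 and 9), with totals from 420197 to 5986128. No count exceeded the number of different tags that 6 random bases can form (4 to the power of 6, here called the count limit), and all 5 deep libraries and the shallow library scKO 3 reached it. In the other 12 shallow libraries the highest count of any gene was 3956 to 4095, so the highest counts understate the RNA in both classes, and do so for more genes in the deep one. Of the shallow libraries, controls 7, 8 and 9 and scKO 1 stood apart on the second principal component (-31.0 to -21.3, against 11.7 to 22.8 for the other 9), and the shallow fold changes of the 7 RNAs are plotted with and without them. Levels are in CPM, counts scaled to a common library total with TMM factors, and 3 counts, taken as the floor of detection, equal 0.501 to 7.14 CPM before that scaling. Hoxa10 was at 14.7 to 64.2 CPM in shallow and 37.5 to 39.6 in deep controls, and at 1.87 to 4.77 and 6.79 to 10.3 in scKO, with no overlap in either class. The muscle markers Pax7 and Myod1 were present in every library, with Pax7 at 22.5 to 52.1 CPM and Myod1 at 486 to 1723. Msc, another of the 10 muscle and satellite cell markers, was at 0 in all shallow libraries.

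All coordinates are of mouse build GRCm38. Srrm4os lies on chromosome 5 from 116438720 to 116465487 on the plus strand, facing the 3′ end of Srrm4, and its exons share 68 bases with Srrm4 exons. Hectd2os lies on chromosome 19 from 36614052 to 36705641 on the minus strand. Its exons share 1834 bases, 46.1% of their length, with exons of Hectd2 on the other strand. Atcayos lies on chromosome 10 from 81194609 to 81210877 on the plus strand, facing both Nmrk2 (270 shared exon bases) and Atcay (432 shared exon bases). Whether the counting used strand is not given in the sources used here, so reads from the shared bases cannot be told apart between an antisense RNA and its partner.

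**Figure D1:**
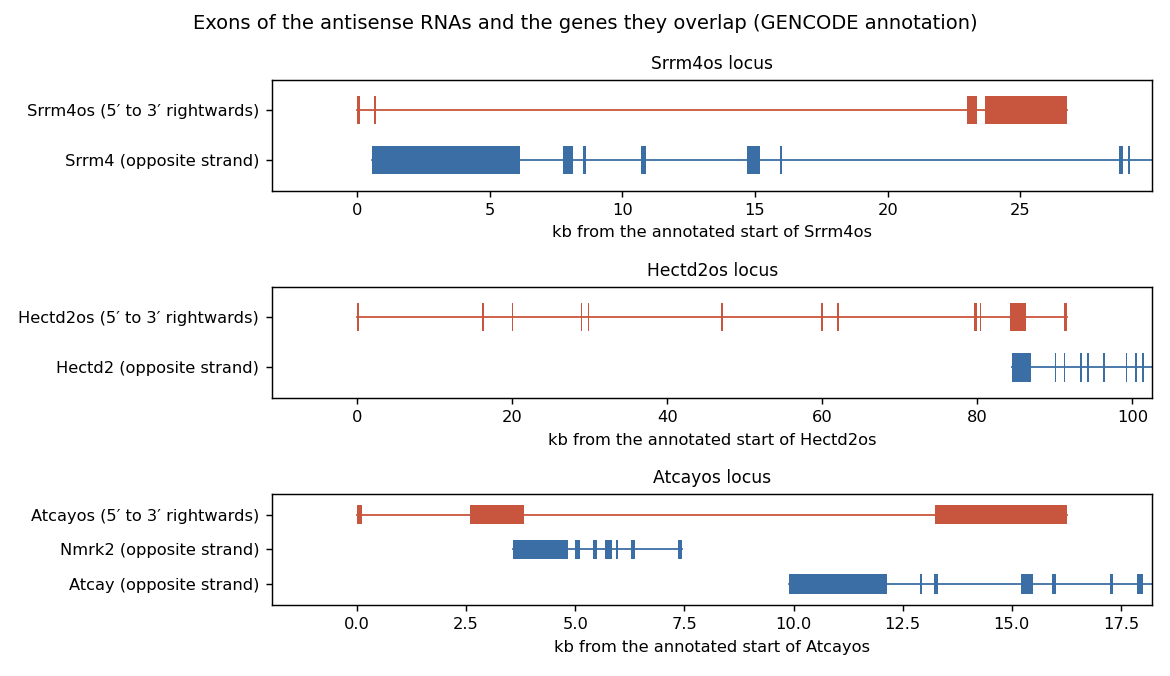
Maps of the Srrm4os, Hectd2os and Atcayos loci (horizontal axis, kb from the start of the antisense RNA, drawn 5′ to 3′), with boxes for exons and lines for introns of the antisense RNA and of the genes it overlaps on the opposite strand. Hectd2os exons coincide with Hectd2 exons over 1834 bases, Atcayos overlaps Nmrk2 and Atcay over 270 and 432, and Srrm4os shares 68 bases with Srrm4.

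RefSeq promoter windows of 300 bases (250 before the start, 50 from it; GRCm38.p6) matched 5 of the 7 genes by symbol: Hectd2os, Atcayos, Malat1, Gas5 (2 starts) and Snhg1. The windows of the 2 antisense RNAs are printed because both had higher values in the deep scKO libraries. Capitals mark matches, on either strand, to TTTAT, a core of the sites bound by posterior Hox proteins such as the one encoded by Hoxa10, and to CANNTG, the E-box bound by MyoD and other muscle regulators. These motifs do not overlap each other here.
Hectd2os, chr19:36689430-36689729, minus strand: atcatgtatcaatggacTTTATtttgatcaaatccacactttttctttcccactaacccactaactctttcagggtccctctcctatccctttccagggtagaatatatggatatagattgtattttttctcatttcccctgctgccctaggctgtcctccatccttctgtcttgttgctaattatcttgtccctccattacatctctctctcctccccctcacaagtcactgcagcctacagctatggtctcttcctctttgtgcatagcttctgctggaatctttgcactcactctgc
Atcayos, chr10:81194441-81194740, plus strand: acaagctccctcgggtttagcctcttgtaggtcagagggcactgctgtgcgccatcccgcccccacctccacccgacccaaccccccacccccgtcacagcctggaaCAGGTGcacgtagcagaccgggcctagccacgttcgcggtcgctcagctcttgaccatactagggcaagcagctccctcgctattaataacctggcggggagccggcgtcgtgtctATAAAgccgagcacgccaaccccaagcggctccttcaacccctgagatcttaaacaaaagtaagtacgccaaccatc

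The Hectd2os window held 1 TTTAT and 0 CANNTG, the Atcayos window 1 of each, and neither held TTTAC, the variant of the Hox core. Among the windows not printed, that of Malat1 held 1 TTTAT, that of Snhg1 held 2 and both of Gas5 held 0. TTTAT was thus not particular to the antisense RNAs. Of 32851 mouse promoter windows of the same length, 40.0% held TTTAT, 31.5% TTTAC and 72.3% CANNTG, so these matches are common and describe the sequence alone. With the base before it, the Atcayos match reads TATAAA, the letters of a TATA box, a core promoter element. Whether any match is a Hox site was not tested. The Hectd2os start that RefSeq gives, 36689479, lies inside the gene as annotated by GENCODE.

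For the snoRNA hosts, the first 30 bases from the start are printed because a pyrimidine tract would lie there, with the opening run of pyrimidines in capitals.
Gas5, chr1:161035166-161035195, plus strand: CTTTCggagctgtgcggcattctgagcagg
Snhg1, chr19:8723487-8723516, plus strand: CTCatttttccttgttcggggtaagtactc
Gas5 opened with C and a run of 5 pyrimidines, and Snhg1 with C and a run of 3. A start at C with a run of at least 5 occurred in 2.50% of the 32851 windows, and a run of at least 3 in 5.81%. The other Gas5 start, at 161034601, began with g and had a run of 0. An opening run of pyrimidines was not particular to the hosts. The Hectd2os start also opened with C and had a run of 12 pyrimidines, while Malat1 had a run of 1 and Atcayos of 0.

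In control cells the 7 RNAs covered a wide range of levels. In the shallow controls Snhg1 was highest (725 ± 77.5 CPM, SD, n = 7), followed by Malat1 (240 ± 96.1), Srrm4os (164 ± 96.1), Neat1 (127 ± 18.7), Gas5 (93.6 ± 19.98), Atcayos (47.1 ± 7.86) and Hectd2os (21.1 ± 12.1). Among 1723 long noncoding genes with a count in these 7 libraries, Snhg1 ranked 3 by CPM, Malat1 6, Srrm4os 10, Neat1 13, Gas5 16, Atcayos 31 and Hectd2os 72. Tags count molecules, and whether these counts rise with transcript length was not tested, so the order per length is given beside the order by CPM. Per kilobase of annotated exon the order was Snhg1 (244 CPM per kb), Srrm4os (44.8), Malat1 (34.4), Gas5 (24.9), Atcayos (10.8), Neat1 (6.11) and Hectd2os (5.30). Without the 4 libraries that stood apart Srrm4os (25.7 CPM per kb) came after Malat1 (36.3) and Gas5 (27.4), and its level of 93.9 CPM was below those of Neat1 (114) and Gas5 (103). In the order over all 7 libraries Srrm4os and Malat1 did not differ beyond their spread, nor did Malat1 and Gas5, or Neat1 and Hectd2os. Length was the union of all annotated exons, 20.771 kb for Neat1, and the unions of Gas5 and Snhg1 include models that retain introns.

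The deep controls gave other levels than the shallow ones, in the same genotype. Hectd2os was 2.72 times as high in deep as in shallow controls, Gas5 1.85 times, Malat1 1.56 times and Neat1 1.07 times. Atcayos was at 0.556, Snhg1 at 0.433 and Srrm4os at 0.357 times the shallow level. Against the 4 shallow controls that did not stand apart, the ratio was 0.622 for Srrm4os and 1.94 for Hectd2os. Without TMM scaling these ratios were 3.97, 2.74, 2.32, 1.60, 0.831, 0.646 and 0.545 in the same order. With counts corrected for UMI collisions (the same tag falling on different molecules) the Malat1 ratio was 2.45. What else besides depth differed between the classes was not tested, so scKO was compared with control within each class or with the class as a term.

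Srrm4os is named for Srrm4, which encodes a neuronal splicing factor for microexons. Srrm4os was at 59.7 and 57.2 CPM in the deep controls 1 and 2, and at 131, 122 and 111 CPM in the deep scKO 6, 7 and 9. All 3 scKO values lay above both controls, with means of 58.4 ± 1.78 (SD, n = 2) and 121 ± 10.4 (n = 3). The fitted log2 fold change of scKO over control was 1.04 (SE 0.10).

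In the shallow libraries the Srrm4os groups overlapped. Controls ranged from 84.4 to 324 CPM (median 107) and scKO from 107 to 241 (median 144), with means of 164 ± 96.1 (n = 7) and 163 ± 58.5 (n = 6). The fitted log2 fold change was 0.01 (SE 0.34). The spread of the controls lay mostly between 2 sets of libraries: controls 7, 8 and 9, which stood apart, averaged 257 CPM (187 to 324), and the other 4 averaged 93.9 (84.4 to 107), a ratio of 2.74. scKO 1, which also stood apart, was at 229 CPM. Without those 4 libraries, controls were at 93.9 ± 11.4 CPM (n = 4) and scKO at 150 ± 54.5 (n = 5). Then 4 of 5 scKO libraries lay above every control and the log2 fold change was 0.69 (SE 0.21), in a subset chosen after the data were seen. Srrm4 itself had 0 to 2 counts per shallow library and 6 to 19 per deep library, and did not pass the filter except in the deep fit, where its log2 fold change was 0.01 (edgeR adjusted p = 0.993, SE 0.48).

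Hectd2os faces Hectd2, which encodes a ubiquitin ligase. It was at 56.8 and 58.1 CPM in the deep controls and at 124, 114 and 106 CPM in scKO 6, 7 and 9. The groups did not overlap (57.5 ± 0.93, n = 2, against 114 ± 8.83, n = 3), and the log2 fold change was 0.98 (SE 0.10).

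Hectd2os was the antisense RNA whose values were higher in scKO in both classes. Shallow controls ranged from 6.95 to 38.1 CPM (median 21.5) and scKO from 20.98 to 63.6 (median 54.6). All scKO libraries except scKO 1 lay above every control. The means were 21.1 ± 12.1 (n = 7) and 48.8 ± 16.4 (n = 6), and the log2 fold change was 1.10 (SE 0.32). These levels rest on few molecules, 3 to 33 counts per shallow control and 14 to 54 per shallow scKO library.

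The libraries that stood apart were low in Hectd2os where they were high in Srrm4os. Controls 7, 8 and 9 averaged 9.72 CPM against 29.6 in the other 4, and scKO 1 was the lowest scKO library at 20.98. Without the 4, controls (29.6 ± 7.96, n = 4) and scKO (54.3 ± 10.3, n = 5) did not overlap, with a log2 fold change of 0.85 (SE 0.23). This subset was chosen after the data were seen, and the share of all genes that separate in it was not computed. Over all 18 libraries with depth class as a term, the log2 fold change of Hectd2os was 1.05 (SE 0.21).

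Hectd2, the partner, was rare: 0 to 5 counts per shallow library, 24 and 35 in the deep controls, and 33, 41 and 42 in deep scKO. Its log2 fold change in the deep libraries was 0.27 (edgeR adjusted p = 0.530, SE 0.26). Hectd2os itself had 317 and 482 counts in the deep controls and 749 to 903 in deep scKO. Ppp1r3c, a glycogen-targeting subunit of protein phosphatase 1 and the nearest protein-coding gene upstream of Hectd2os, had a value of 0.69 on the log2 scale (edgeR adjusted p = 0.0574, SE 0.23) in the deep libraries. Pcgf5, a Polycomb subunit and the nearest gene on the other side, had 0.02 (edgeR adjusted p = 0.975, SE 0.24).

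For Atcayos the groups separated in the deep libraries and overlapped in the shallow ones. It was at 28.7 and 23.8 CPM in deep controls and at 56.9, 70.4 and 63.6 CPM in scKO 6, 7 and 9, again without overlap. The means were 26.2 ± 3.48 (n = 2) and 63.6 ± 6.74 (n = 3), and the log2 fold change was 1.27 (SE 0.13).

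The groups interleaved in the shallow libraries. Controls ranged from 36.2 to 57.6 CPM (median 45.0) and scKO from 25.5 to 65.2 (median 45.9), with 1 scKO library above every control and 2 below. The log2 fold change was -0.09 (SE 0.22), and 0.12 (SE 0.23) without the 4 libraries that stood apart. The fitted difference of the scKO effect between the classes was 1.36 on the log2 scale (SE 0.32) for Atcayos, 1.02 (SE 0.57) for Srrm4os and -0.09 (SE 0.43) for Hectd2os. No test is given for these differences.

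The partners of Atcayos were rare as well. Atcay, which encodes the brain protein caytaxin, had 0 to 2 counts in every library. Nmrk2, a muscle nicotinamide riboside kinase, had 31 and 80 counts in deep controls and 67 to 74 in deep scKO, and a value of 0.29 on the log2 scale (edgeR adjusted p = 0.461, SE 0.24). Dapk3, a protein kinase gene that ends 1412 bases before Atcayos on the same strand, had 0.49 (edgeR adjusted p = 0.339, SE 0.32), and was called higher on leaving out control 2 (1.32, edgeR adjusted p = 0.0374). Zfr2, a zinc finger gene on the same strand on the other side, was called higher in the deep scKO libraries, with 28 to 47 counts against 10 and 20 and a value of 1.15 on the log2 scale (edgeR adjusted p = 0.0349, SE 0.34). That call was lost with DESeq2 (adjusted p = 0.109) and on leaving out control 1, control 2, scKO 6 or scKO 7 (adjusted p = 0.0627 to 0.146).

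**Figure D2:**
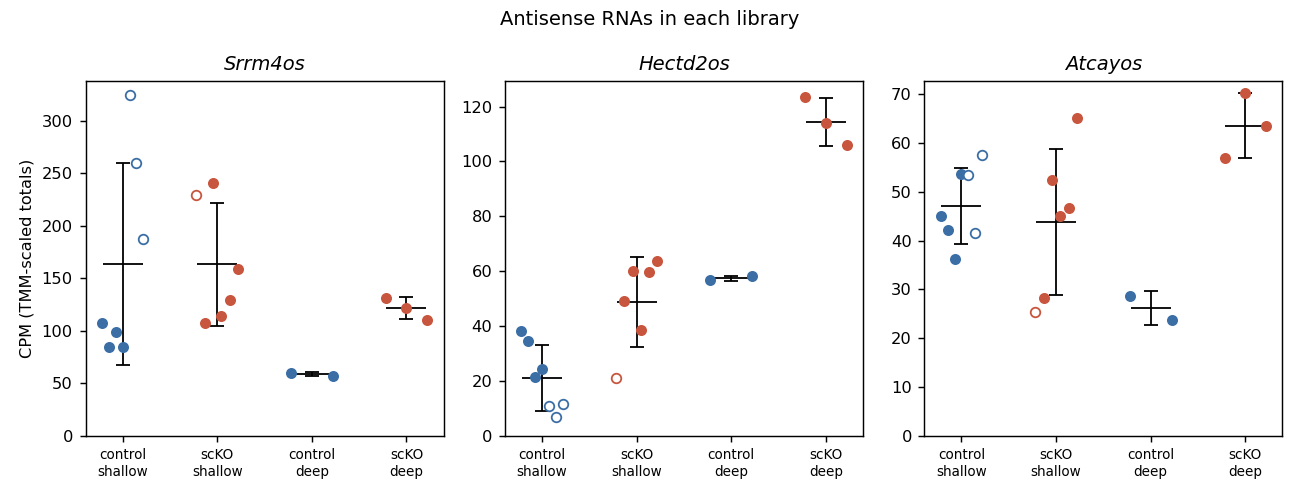
Levels of Srrm4os, Hectd2os and Atcayos in each library (vertical axis, CPM), by group and depth class, with points for libraries, bars for the mean and SD, and open points for the 4 libraries that stood apart. In the deep libraries every scKO point lies above both controls for all 3 RNAs, while in the shallow libraries Srrm4os (84.4 to 324 CPM in controls, 107 to 241 in scKO) and Atcayos (36.2 to 57.6 and 25.5 to 65.2) overlap.

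Separation in the deep libraries is common in this table. Of 13136 genes fitted there, 24.3% had every scKO library above both controls and 21.0% had every one below, so the count of 3 antisense RNAs on one side is read against that share. Of 6906 genes in the shallow libraries, 0.217% had every scKO library above every control and 0.101% below, and 0 of the 7 RNAs did either. Some markers of other cell types also differed with group in the deep libraries, where 7.31% of all genes were called higher and 7.03% lower. The summed level of 7 Schwann and neural markers was 81.0 and 89.3 CPM in the deep controls and 132 to 173 in deep scKO, with 5 of 6 fitted markers higher in value and Sox10, Ngfr and Erbb3 called higher (log2 fold changes of 1.96, 1.10 and 0.65, edgeR). In the shallow libraries the same sum ran from 119 to 494 CPM in controls and from 88.0 to 226 in scKO. The direction was the opposite there, with all 3 fitted markers lower in value (median log2 fold change -1.22). None was called by edgeR, and 2 had an unadjusted p under 0.05, beside 6.15% of all genes. The 7 smooth muscle and pericyte markers summed to 264 and 303 CPM in deep controls and 304 to 319 in deep scKO. Of the 6 fitted there, 3 were higher and 3 lower in value, with Myh11 and Abcc9 called higher. The 7 fibro-adipogenic markers summed to 63.9 and 78.5 CPM in deep controls against 84.0 to 94.1 in deep scKO. Endothelial and leukocyte markers, 7 each, summed to at most 60.2 and 15.9 CPM in any library. The 10 muscle markers summed to 2514 and 3030 CPM against 2543 to 2813, with Myf5 called lower (log2 fold change -0.33). Myod1, the largest of them, had 3878 to 4027 counts in the deep libraries, just under the count limit, so that sum does not show whether the share of muscle RNA differed. The part of these cells in the antisense values was not tested, and in bulk samples a different share of a cell type and a different amount of RNA per cell cannot be told apart.

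Malat1, Neat1, Gas5 and Snhg1 were not called between scKO and control. Over all 18 libraries, edgeR's quasi-likelihood test called 0 of these 4 at an adjusted p under 0.05, against 0.679% of 7662 genes (0.326% higher, 0.352% lower). It also called 0 of 4 in the shallow libraries (0.0434% of 6906 genes, 0.029% higher and 0.0145% lower) and 0 of 4 in the deep libraries (14.3% of 13136 genes, 7.31% higher and 7.03% lower). At an unadjusted p under 0.05 the counts were 1, 0 and 0 of 4, against 11.9%, 6.15% and 29.4% of all genes. DESeq2 called 0 of 4 in each, against 5.09%, 0.0869% and 9.87% of all genes. The scKO effect was not called different between the classes for any of the 4 (0 of 7662 genes in the edgeR interaction test, with 473 of them, 6.17%, at an unadjusted p under 0.05 and 0 of the 4 among these).

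Malat1, on chromosome 19 from 5795690 to 5802672, varied more between libraries of a group than between groups. Shallow controls ranged from 87.3 to 340 CPM (median 243) and shallow scKO from 121 to 304 (median 248), nested inside the control range. Deep controls were at 344 and 407 CPM and the deep scKO 6, 7 and 9 at 279, 400 and 424, with scKO values on both sides of the controls. The log2 fold change was -0.05 over all libraries (edgeR adjusted p = 0.964, SE 0.21), -0.07 in shallow (adjusted p = 0.969, SE 0.28) and -0.04 in deep ones (adjusted p = 0.898, SE 0.17). Malat1 is the member nearest to the count limit: its 1919 to 3371 counts in the deep libraries were 46.9% to 82.3% of that limit. With counts corrected for collisions the deep controls were at 491 ± 196 in place of 375 ± 44.3 CPM, and the deep scKO libraries at 470 ± 161 in place of 368 ± 77.5, so the corrected values were higher and more spread.

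**Figure D3:**
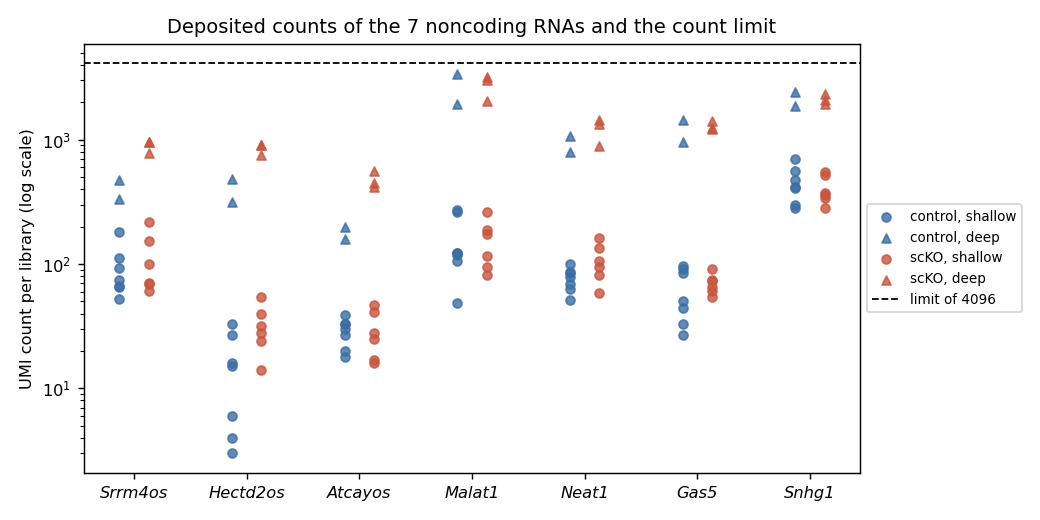
Deposited UMI counts of the 7 RNAs in each library (vertical axis, log scale), by gene, with color for the group, circles for shallow and triangles for deep libraries, and a dashed line for the count limit. Malat1 and Snhg1 in the deep libraries reach 82.3% and 59.4% of the limit, while the 3 antisense RNAs stay at or under 23.6% of it in every library.

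Neat1, on chromosome 19 from 5824708 to 5845478 beside Malat1, had higher mean values in scKO in both classes, which did not pass the test. Shallow controls ranged from 98.2 to 147 CPM (median 128) and scKO from 110 to 257 (median 158), and 4 of 6 scKO libraries lay above every control. Deep controls were at 142 and 130 CPM, scKO 7 and 9 at 182 and 188, and scKO 6 below both controls at 123. The log2 fold change was 0.34 over all libraries (edgeR adjusted p = 0.324, unadjusted p = 0.0267, SE 0.14), 0.36 in shallow (adjusted p = 0.822, SE 0.19) and 0.26 in deep ones (adjusted p = 0.401, SE 0.18). Leaving out scKO 6 turned the deep value into a call (log2 fold change 0.43, edgeR adjusted p = 0.0143). Without the 4 libraries that stood apart the shallow log2 fold change was 0.59 (edgeR adjusted p = 0.352). Frmd8, the nearest protein-coding gene upstream of Neat1, had a value of 0.14 on the log2 scale over all libraries (edgeR adjusted p = 0.772, SE 0.14).

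Gas5, on chromosome 1 from 161034422 to 161038539, varied least among the 7 RNAs in the deep libraries, by the ratio of the highest to the lowest library of a group (1.01 in controls, 1.06 in scKO). Controls 1 and 2 were at 173 and 174 CPM and scKO 6, 7 and 9 at 168, 178 and 175, and the log2 fold change was -0.01 (edgeR adjusted p = 0.950, SE 0.09). Shallow controls ranged from 71.6 to 123 CPM (median 89.1), and scKO, from 95.1 to 119 (median 107), lay inside that range. The log2 fold change there was 0.17 (edgeR adjusted p = 0.853, SE 0.16). Gas5 spans 10 annotated snoRNAs on its own strand, and reads from those in introns or retained introns cannot be told from the host by these counts.

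Snhg1, on chromosome 19 from 8723475 to 8726443, was lower in mean in scKO in both classes but did not pass the test. Shallow controls ranged from 603 to 818 CPM (median 738) and shallow scKO from 500 to 775 (median 606), with 3 of 6 scKO libraries below every control. Deep controls were at 334 and 294 CPM, and all 3 deep scKO libraries lay below them, at 285, 292 and 274. Of 13136 genes fitted there, 21.0% had every scKO library below both controls. The log2 fold change was -0.21 over all libraries (edgeR adjusted p = 0.423, unadjusted p = 0.0508, SE 0.10), -0.24 in shallow (adjusted p = 0.822, SE 0.14) and -0.16 in deep ones (adjusted p = 0.344, SE 0.10). Two-sided exact permutation tests of log2(CPM + 1) gave p = 0.0501 in the shallow libraries (adjusted p = 0.359 over the 19 genes tested so) and p = 0.1 in the deep ones, the smallest value that 2 against 3 libraries allow. Slc3a2, an amino acid transporter subunit whose gene begins 106 bases from Snhg1 on the other strand, had a log2 fold change of 0.42 in the shallow libraries (edgeR adjusted p = 0.800, SE 0.19) and -0.07 in the deep ones (adjusted p = 0.759, SE 0.13).

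**Figure D4:**
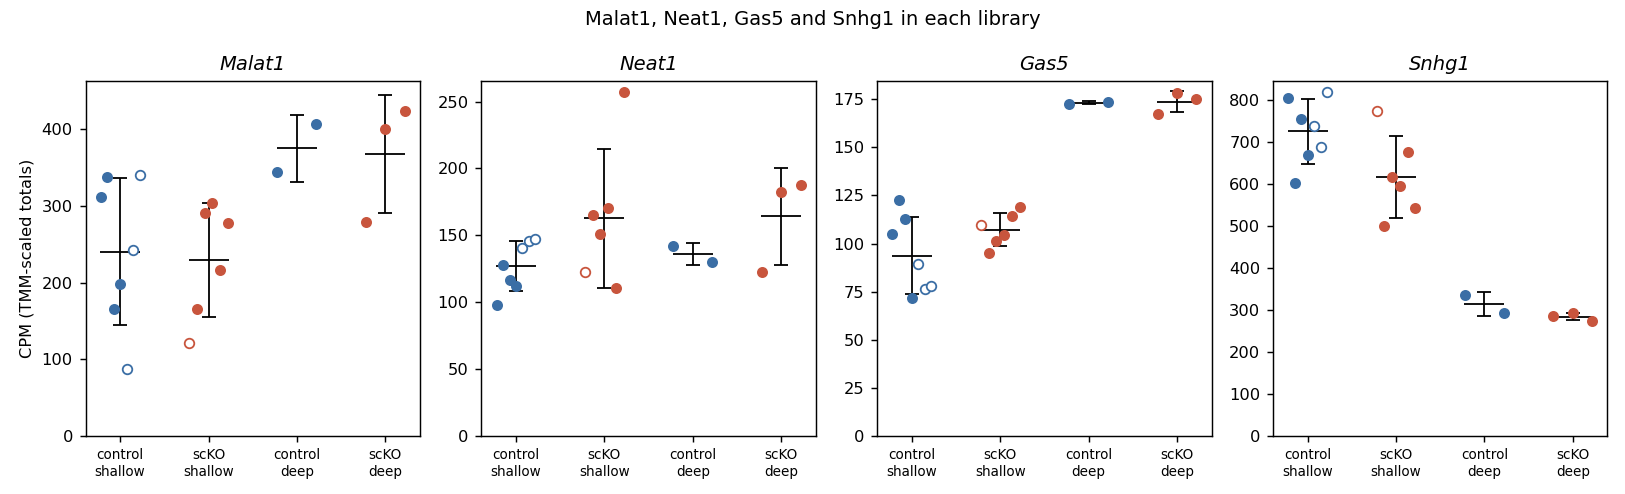
Levels of Malat1, Neat1, Gas5 and Snhg1 in each library (vertical axis, CPM), by group and depth class, with points for libraries, bars for the mean and SD, and open points for the 4 libraries that stood apart. The groups overlap for Malat1, Neat1 and Gas5 in both classes. For Snhg1 the 3 deep scKO libraries (274 to 292 CPM) lie below the deep controls (294 and 334), as do those of 21.0% of all genes fitted there.

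**Figure D5:**
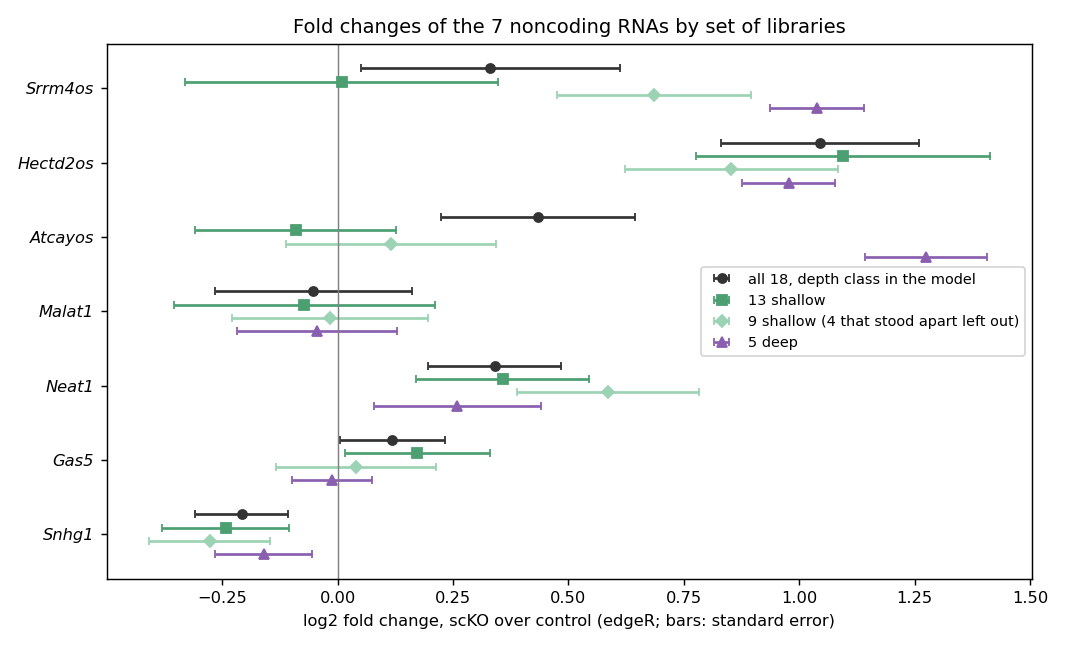
Log2 fold changes of scKO over control (horizontal axis) for the 7 RNAs, fitted over all libraries, over the shallow libraries with and without the 4 that stood apart, and over the deep libraries, with bars for the standard error. Hectd2os lies between 0.85 and 1.10 in all of them, while Atcayos is at 1.27 in the deep and at -0.09 in the shallow libraries.

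Genes that work with these RNAs, or are of the same kind, were read as lists. The list of snoRNA host genes includes Snhg1 itself, whose own lower values are counted in it. Of 28 snoRNA host genes, 17 were fitted over all libraries, with 6 higher and 11 lower in value, a median log2 fold change of -0.16 against -0.01 over all genes, and 0 called by edgeR (3 at an unadjusted p under 0.05; 1 called by DESeq2, lower). In the deep libraries 20 of 22 hosts were lower in value, with a median of -0.16 against -0.002 over all genes, and 3 were called, all lower: Snhg3 (log2 fold change -0.34), Snhg15 (-0.51) and Snhg17 (-0.62), the last 2 named after their values were seen. With 7.03% of all genes called lower there, that count of 3 among 22 is to be read beside it. Epb41l4aos, a host that is also an antisense RNA, had -0.47 over all libraries (edgeR adjusted p = 0.351, SE 0.21).

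Proteins of the nuclear bodies that hold Malat1 and Neat1 were mostly lower in value over all and in the deep libraries, but gave no calls in the shallow ones. Of all genes, 3709 were higher and 3953 lower over all libraries, 3163 and 3743 in the shallow and 6541 and 6595 in the deep ones. Of 30 nuclear speckle proteins, 6 were higher and 24 lower over all libraries (median log2 fold change -0.07), with 0 called by edgeR (2 at an unadjusted p under 0.05; 1 called by DESeq2, lower). Deep libraries had 25 of 30 lower in value (median -0.20) and 6 called lower, where 7.03% of all genes were called lower. In the shallow libraries 11 of 28 were higher and 17 lower (median -0.02, as over all genes), with 0 called by edgeR (0 at an unadjusted p under 0.05; 0 by DESeq2). Among the 6, Srsf3, a splicing factor, fell by 0.44 on the log2 scale (edgeR adjusted p = 0.00566, SE 0.09), Srpk1, a kinase of such factors, fell by 0.39 and Pnn, a speckle protein, fell by 0.38. Of 24 paraspeckle proteins, 20 were fitted over all libraries, with 5 higher and 15 lower (median -0.10) and 0 called (2 at an unadjusted p under 0.05; 0 by DESeq2). In the deep libraries 17 of 24 were lower in value (median -0.18) and 2 were called lower, again beside 7.03% of all genes: Rbm14, which paraspeckles need (log2 fold change -0.56, SE 0.11, edgeR adjusted p = 0.00412), and Hnrnpul1 (-0.34), named after its value was seen. In the shallow libraries 10 paraspeckle proteins were higher and 10 lower (median -0.05), with 0 called by edgeR (1 at an unadjusted p under 0.05; 0 by DESeq2).

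Factors that remove or process such RNAs gave few calls. Of 24 nonsense-mediated decay factors, 17 were fitted over all libraries, with 5 higher and 12 lower (median log2 fold change -0.17) and 0 called by edgeR (2 at an unadjusted p under 0.05; 1 called by DESeq2, lower). All 24 were fitted in the deep libraries, where 7.03% of all genes and 3 of these were called lower: Magoh (-0.45), a core protein of the exon junction complex, its paralog Magohb (-0.49) and Upf3a (-0.38), the last 2 named after their values were seen. Reads of Magoh and Magohb may be split uncertainly, since the genes are close copies. Of 27 factors of polyadenylation, stability and processing of long noncoding RNAs, 21 were fitted over all libraries, with 10 higher and 11 lower (median -0.01) and 0 called by edgeR (1 at an unadjusted p under 0.05; 0 by DESeq2). The classes differed: of 24 fitted in the deep libraries 5 were higher and 19 lower in value (median -0.16). Of 16 fitted in the shallow ones, 10 were higher and 6 lower (median 0.12), with 0 called. In the deep libraries 1 was called, beside the same 7.03%. That was Exosc2, an exosome subunit, which fell by 0.65 on the log2 scale (edgeR adjusted p = 0.0231, SE 0.17).

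Wider lists of long noncoding RNAs were read beside the 7. The first list includes Neat1, and tested members were not taken out of it, so it is not independent of the 7. Of 34 nuclear, imprinted and muscle long noncoding RNAs, 13 were fitted over all libraries, with 7 higher and 6 lower (median log2 fold change 0.07) and 1 called. That was Kcnq1ot1, an imprinted antisense RNA that silences genes next to it, at 14.5 and 8.44 CPM in shallow and 20.7 and 11.1 CPM in deep controls and scKO, in that order. Its log2 fold change was -0.82 (edgeR adjusted p = 0.0434, SE 0.19), and the call was lost in 13 of 18 fits that left out 1 library (adjusted p up to 0.248). It was also lost with the replicate block (edgeR adjusted p = 0.166), a stricter count filter (0.0536), the log2 total count as covariate (0.0560) and the group alone (0.416). In the shallow libraries 4 of 12 RNAs on this list were higher and 8 lower (median -0.12), with 0 called by edgeR (2 at an unadjusted p under 0.05; 0 by DESeq2). In the deep libraries 10 of 26 were higher and 16 lower (median -0.05), and 5 were called, beside 14.3% of all genes. Of these 5, Kcnq1ot1 (-0.89), Dnm3os (-0.53) and Mir17hg (-0.96) were lower and 1700020I14Rik (0.53) and Gm28653 (0.48) higher, all but Kcnq1ot1 named after their values were seen. Meg3, another imprinted RNA, had -0.40 over all libraries (edgeR adjusted p = 0.262, SE 0.15). Its shallow value was -0.57 (edgeR adjusted p = 0.699, SE 0.19) and its deep value -0.003 (adjusted p = 0.990, SE 0.09). Of 285 noncoding genes whose symbol ends in os, the usual mark of an opposite-strand transcript, 42 besides the 3 antisense RNAs were fitted in the deep libraries. Among these 42, 19 were higher and 23 lower in value (median log2 fold change -0.05), with 1 called higher (Chn1os3, 0.87) and 4 lower (Brip1os -0.46, Dnm3os -0.53, Foxd2os -1.09 and Ptgs2os -1.52), all but Brip1os named after their values were seen. That is 5 of 42, beside 14.3% of all genes. DESeq2 called 1 of the 42, lower.

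Likeness between genes over the 13 shallow libraries is given as a description. The points share their library and depth class, and both groups are pooled. Among 6736 genes with a mean of at least 10 counts, those with the highest Pearson correlation of log2(CPM + 1) to Srrm4os were Tcaim (r = 0.92, and 0.86 over the 9 libraries that did not stand apart), Ank3 (0.90, 0.88) and Gmpr (0.90, 0.82). For Hectd2os they were Psme3 (0.93, 0.79), Taf1a (0.93, 0.70) and Map1lc3b (0.92, 0.60). For Atcayos they were Rnf7 (0.84, 0.78), Ssu72 (0.84, 0.85) and Sfrp1 (0.77, 0.74).

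Among the RNAs that were tested, Malat1 was most like Slc7a6os (0.83, 0.46), Wasl (0.82, 0.78) and Gnl2 (0.82, 0.48). Neat1 was most like Tm9sf3 (0.83, 0.86), Aff1 (0.81, 0.87) and Plpp3 (0.77, 0.84), and Gas5 like Usmg5 (0.83, 0.72), Lamtor3 (0.82, 0.79) and Kpna1 (0.81, 0.70). Snhg1 had the highest values, with Mtch1 (0.95, 0.94), Cacybp (0.94, 0.92) and Smc1a (0.93, 0.93). Between members, Srrm4os and Hectd2os had r = -0.46 over 13 libraries and 0.74 over the 9, so the sign of that value rests on the 4 libraries that stood apart. Neat1 and Snhg1 had r = -0.65 and -0.80.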

How the data were processed

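RNA was measured in 18 libraries of cultured mouse satellite cells. The deposited table holds UMI counts per mouse Ensembl gene, not normalized. HISAT2 and HTSeq, and the build Rnor_6.0, are named in the submitters' processing notes without versions or roles, although the gene identifiers are mouse. Of 50689 features, 50376 were paired with a symbol through GENCODE M21. The 7 genes and all gene lists were chosen with earlier results of these data known. The list of genes ending in os was limited to noncoding gene types after the table was read.

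Libraries were compared with edgeR 4.0.16 (quasi-likelihood test, robust, TMM factors, filterByExpr by group, Benjamini-Hochberg adjustment over all fitted genes, threshold 0.05) with depth class as a term, within each class, and for the difference between classes. Exact permutation tests used log2(CPM + 1). The fits were tested on simulated counts: of genes changed 2-fold, 97 of 100 were recovered over all libraries, 65 of 94 in shallow and 75 of 98 in deep ones. Unchanged genes called there numbered 4, 10 and 16. Simulated libraries were drawn independently, with no set standing apart as in the real data, so recovery and false calls in the real data may differ. For collisions, a count c was replaced by L times the negative natural logarithm of 1 - c/L, where L is the number of tags of 6 bases, and rounded. Alternatives were DESeq2 1.42.0, other scalings and filters, the correction, a replicate block, and leaving out libraries. The 4 libraries that stood apart were left out as an alternative chosen after seeing the data. Named besides the 7 were the genes that overlap them, their nearest protein-coding neighbours, up to 4 genes per list with the smallest unadjusted p over all libraries, and the 3 genes most like each. Genes outside this rule are marked where named, and 1 neighbouring gene is not reported here. Levels of replicates were checked, and no pair of libraries of the same group and depth class differed as little as sampling noise. Other pairs were not compared. Replicate numbers do not pair the groups in the labels.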

Additional observations from a re-analysis of the deposited data

How the results depend on the processing

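The number of called genes moved with the settings. Over all libraries 52 genes were called, against 390 with DESeq2, 359 with no count filter, 22 with a stricter filter, 26 with the log2 total count as covariate, 1 with the group alone and 617 without the 4 libraries that stood apart. Leaving out each library gave 11 (without control 1) to 216 (without scKO 1). In the shallow libraries 3 genes were called, against 6 with DESeq2, 13 with no filter, 1 (without control 3, 8 or 9) to 5 (without scKO 1) on leaving out a library, and 0 of 7077 by edgeR without the 4 libraries (606 at an unadjusted p under 0.05; DESeq2 was not run there). In the deep libraries 1884 genes were called, and 996 (without scKO 7) to 1810 (without control 2) on leaving out a library; with 1 control left, that control is assumed to vary like the scKO libraries.

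Without the 4 libraries the log2 fold change over all libraries was 0.85 for Srrm4os and 0.76 for Atcayos, and in the shallow libraries 0.69 for Srrm4os, whose value there ran from -0.13 to 0.69 over all settings; that of Atcayos ran from -0.23 to 0.32 and that of Hectd2os from 0.85 to 1.31. With collisions corrected, that of Hectd2os in the deep libraries was 1.06. Malat1 changed sign: 0.029 with the group alone, -0.15 to 0.036 on leaving out a library over all, -0.21 to 0.068 among shallow and -0.17 to 0.12 among deep libraries, and -0.019 for the difference between classes without the 4 libraries. Gas5 ran from -0.029 to 0.018 in the deep libraries, and Neat1 from 0.15 to 0.43 there, called without scKO 6. Neighbours with values near 0 changed sign too: Hspb8 (-0.052 over all with the group alone, 0.36 in deep with collisions corrected, -0.39 to 0.15 on leaving out a library; without control 2 it was called, edgeR adjusted p = 0.0109, but its deep counts, at 96.8% to 99.7% of the count limit, cannot be read as levels), and in the deep libraries Suds3 (0.0046 with no filter, -0.10 to 0.10 on leaving out a library), Srrm4 (-0.37 to 0.72), Pcgf5 (-0.074 to 0.090), Nmrk2 (-0.022 to 0.78), Frmd8 (-0.0052 to 0.038) and Slc3a2 (-0.23 to 0.089). The cause was not tested.

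Same-numbered libraries had residual correlations from -0.13 to 0.40, and 2 of 9 controls correlated best with their own number. Some same-numbered libraries differ in depth class, so these values cannot settle whether the numbers pair the groups. With the replicate block 14 genes were called over all libraries and 3 in the shallow ones, the shallow log2 fold change of Atcayos was 0.32 and that of Malat1 0.072. Within the deep libraries no paired fit could be made, since the groups share no replicate number there. Counts of 3 to 54 limit Hectd2os in the shallow libraries, and the count limit affects Malat1 and Snhg1 in the deep ones.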
